A study of Homo sapiens with 15 samples.

Results

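Nonsense-mediated decay (NMD) is the pathway that degrades mRNAs on which translation stops too early, and its 9 factors described here are UPF1, UPF2, UPF3A, UPF3B, SMG1, SMG5, SMG6, SMG8 and SMG9. They were chosen by name, and all 9 were found among the 55773 genes of the deposited table. Every library came from HEK293 cells, an established human embryonic kidney line, or from the derived line Flp-In T-REx 293, and there were 5 groups of 3 libraries. The study overexpressed or depleted ZC3H7A and ZC3H7B, which are paralogous CCCH zinc-finger proteins that bind RNA. In the overexpression experiment the Flp-In T-REx 293 lines carried a transgene for Flag/HA-tagged ZC3H7A, for Flag/HA-tagged ZC3H7B or for a Flag/HA control, with doxycycline given as the treatment in all 3 groups (per the treatment protocol, 1 µg/mL for 24 h). Cells were opened in a hypotonic buffer with detergent and part of the lysate went into poly(A) RNA libraries, 3 independent replicates a group. In the depletion experiment, cells labelled Parental carried a control shRNA, and cells labelled DD combined a ZC3H7A knockout with an shRNA against ZC3H7B. Both were kept in puromycin at 5 µg/mL until 2 passages before collection, and a company prepared their libraries with a different protocol. Whether the Parental and DD libraries are separate cultures, and whether any line is 1 clone, cannot be read from the labels, so p-values measure the spread between these libraries.

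NMD begins when a terminating ribosome meets UPF1, an RNA helicase, together with UPF2 and a UPF3 protein, which link UPF1 to exon junction complexes left downstream on the mRNA. The kinase SMG1, held in check by its partners SMG8 and SMG9, phosphorylates UPF1. Phosphorylated UPF1 then recruits the endonuclease SMG6 and the adaptor SMG5, and mRNAs of several of these factors are themselves known substrates of the pathway.

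Because the direction of the changes in the overexpressions, though not in DD, ran along with codon usage over all genes, a stretch of the coding sequence is shown for 5 factors before their values. Each is the central 30 codons of the longest GENCODE 29 coding sequence (GRCh38), 5′ to 3′, and capitals mark an A or T at the last position of a codon. UPF1 and SMG9 were higher in both overexpressions, and UPF2 and UPF3B were lower with ZC3H7A. SMG8 was higher in both overexpressions and has a coding sequence rich in such codons.
UPF1: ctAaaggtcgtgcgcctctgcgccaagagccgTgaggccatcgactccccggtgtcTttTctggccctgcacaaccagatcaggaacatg
SMG9: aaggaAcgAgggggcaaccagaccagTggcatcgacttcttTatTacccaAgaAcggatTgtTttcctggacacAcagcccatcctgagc
UPF2: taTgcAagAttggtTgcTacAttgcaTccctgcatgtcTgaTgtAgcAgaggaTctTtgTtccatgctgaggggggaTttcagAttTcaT
UPF3B: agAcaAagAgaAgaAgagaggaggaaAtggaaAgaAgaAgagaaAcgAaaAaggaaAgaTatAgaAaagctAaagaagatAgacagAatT
SMG8: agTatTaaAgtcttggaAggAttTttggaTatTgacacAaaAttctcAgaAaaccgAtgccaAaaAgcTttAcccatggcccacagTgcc
In these windows 4 codons of UPF1 (codons 550 to 579) and 10 of SMG9 (codons 246 to 275) end in A or T. The count is 18 in UPF2 (codons 622 to 651), 20 in UPF3B (codons 227 to 256) and 18 in SMG8 (codons 481 to 510). In the windows not shown it is 14 in SMG6, 16 in SMG5, 18 in UPF3A and 19 in SMG1, and SMG5 and SMG6 were higher in both overexpressions.

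Over the whole coding sequence, codons ending in A or T made up 20% of UPF1 (ENSG00000005007, chromosome 19), 33.3% of SMG9 (ENSG00000105771, chromosome 19), 34.9% of SMG5 (ENSG00000198952, chromosome 1) and 40% of SMG6 (ENSG00000070366, chromosome 17). They made up 45.4% of UPF3A (ENSG00000169062, chromosome 13), 57.0% of SMG8 (ENSG00000167447, chromosome 17), 59.1% of SMG1 (ENSG00000157106, chromosome 16), 59.8% of UPF3B (ENSG00000125351, chromosome X) and 61.5% of UPF2 (ENSG00000151461, chromosome 10). The median of 18995 coding genes was 39.3%, which puts SMG8, SMG1, UPF3B and UPF2 at percentiles 80.7 to 88.1 of coding genes and UPF1 at percentile 12.7.

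Sequencing depth was 45.5 to 57.6 M reads per overexpression library and 12.2 to 15.5 M per depletion library. The fewest reads for any of the 9 factors in a library were 959 and 73, in that order. As a check of the labels, ZC3H7A lay between 3180 and 3374 normalized counts in the controls and between 10131 and 12898 with its transgene, and ZC3H7B between 5818 and 6044 in the controls and between 26632 and 28082 with its own. In DD, ZC3H7B was 1000 to 1168 against 5948 to 6958 in Parental. Reads of ZC3H7A were not lower in the libraries labelled DD, at 1561 to 1771 against 1528 to 1684, and a gene-level count does not show whether the transcript still encodes the protein. The HEK293 markers PAX2, LHX1, INA, VIM, KRT8 and KRT18 were detected in all 15 libraries, and NEFM was at 0 in 2 of them. These 7 markers summed to 11326 to 11879 in the controls, 17805 to 19809 with ZC3H7A, 18398 to 19908 with ZC3H7B, 32665 to 37785 in Parental and 36626 to 40179 in DD. The sum was thus higher in both overexpressions than in the controls. It was carried by VIM, with a median of 13943 over the libraries against 2094 for INA, the next highest, so it does not show how each marker moved. Markers of other cell types summed to 1005 to 1046 in the controls, 534 to 584 with ZC3H7A, 616 to 651 with ZC3H7B, 202 to 316 in Parental and 307 to 313 in DD. That list of 10 genes was carried by HBB and COL1A1, while the medians of DCN, LUM, PTPRC, CD3E and CDH5 over the libraries were at 0. The part of either list in the results below was not tested.

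Levels were first set side by side within a group, as normalized count per kilobase of the transcript with the longest coding sequence. In the controls SMG5 was highest at 1524 ± 14.2 per kb (SD, n = 3), followed by UPF3B at 1190 ± 38.6, UPF1 at 892 ± 6.56, SMG1 at 560 ± 31.5 and SMG9 at 540 ± 6.79. UPF3A at 431 ± 5.06, SMG8 at 357 ± 14.4, UPF2 at 299 ± 7.23 and SMG6 at 273 ± 3.00 per kb came after them. Of these neighbours only SMG1 and SMG9 overlapped. In Parental SMG5 led again at 1458 ± 58.2 per kb, followed by UPF1 at 682 ± 185, whereas UPF3B was lowest at 77.0 ± 2.03. SMG9, SMG1, SMG6 and SMG8 lay between 311 and 402 per kb there, and each of these overlapped its neighbour in the order. In DD the order opened with SMG5 and UPF1 and closed with UPF3A, UPF2 and UPF3B, as in Parental. The position of UPF3B differed between the experiments, but cell line and library protocol differ with it and cannot be told apart.

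The first comparison asks how tagged ZC3H7A changed the factors' mRNA. All 9 factors differed from the control, 5 higher and 4 lower, and in all 9 the libraries of the groups did not overlap. These counts stand against a very large background: 75.9% of the 17673 genes tested were called (34.7% higher and 41.2% lower), and the groups did not overlap for 77.9% of them. The median log2 fold change was 0.23 over the 9 factors and -0.07 over all genes. In bulk samples, fewer cells of a type and less RNA per cell cannot be told apart, which holds for every difference below.

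UPF3B, which binds the exon junction complex, showed the largest change of the 9. Its normalized counts were 2755, 2803 and 2932 in the controls and 1119, 1071 and 1414 with ZC3H7A. It fell by 1.25 on the log2 scale (SE 0.0894, adjusted p = 1.30e-07 by limma), past the 10th percentile of all genes at -1.02. UPF3A, its paralog, whose part in decay is debated, was at 1019, 1023 and 1042 in the controls and at 615, 623 and 729 with ZC3H7A (log2 fold change -0.65, SE 0.0657, adjusted p = 2.19e-06 by limma). Both paralogs were thus lower in every ZC3H7A library than in any control, UPF3B by more. UPF2, the bridge between UPF1 and the UPF3 proteins, was at 1640, 1640 and 1710 in the controls and at 1075, 982 and 1352 with ZC3H7A (log2 fold change -0.56, SE 0.108, adjusted p = 4.67e-04 by limma). The UPF1 kinase SMG1 went from 9599, 8792 and 8660 to 5665, 5074 and 6926 (log2 fold change -0.63, SE 0.0966, adjusted p = 7.98e-05 by limma). In all of these the third ZC3H7A library lay nearest to the controls, and without it UPF3B was at -1.37 and all 9 factors were called.

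UPF1 itself moved the other way. It was at 4778, 4733 and 4709 in the controls and at 6414, 6358 and 5456 with ZC3H7A (log2 fold change 0.35, SE 0.0557, adjusted p = 9.19e-05 by limma). The effectors that act on phosphorylated UPF1 were higher as well. SMG5 went from 7002, 6961 and 6875 to 10483, 10471 and 9264 (log2 fold change 0.53, SE 0.0472, adjusted p = 7.30e-07 by limma). SMG6 went from 1608, 1643 and 1631 to 2734, 2650 and 2294 (log2 fold change 0.65, SE 0.0598, adjusted p = 1.05e-06 by limma). Here too the third ZC3H7A library was the one nearest to the controls, without reaching them. The SMG1 partners also rose, unlike SMG1. SMG9 went from 2967, 2942 and 3015 to 4428, 4543 and 4036 (log2 fold change 0.54, SE 0.0473, adjusted p = 6.63e-07 by limma). SMG8 had the smallest change, from 1269, 1273 and 1184 to 1472, 1500 and 1407 (log2 fold change 0.23, SE 0.0459, adjusted p = 5.48e-04 by limma).

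**Figure D1:**
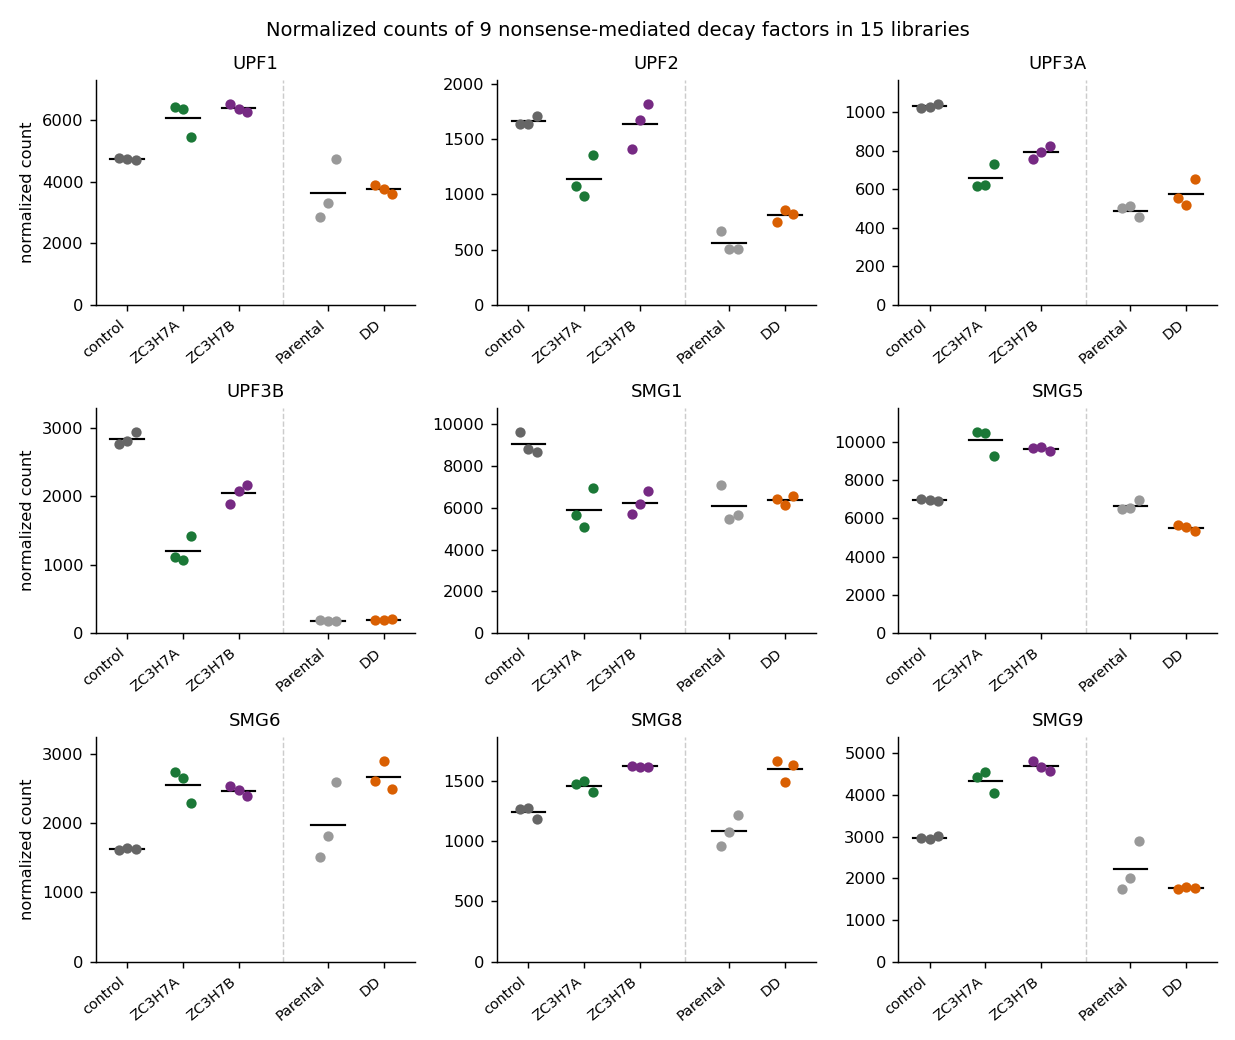
Normalized count (y axis, linear from 0) of each of the 9 factors in the 15 libraries, with 1 point per library, grouped along the x axis, and a line at each group mean; the dashed line parts the overexpression from the depletion experiment. UPF3B is lowest with ZC3H7A among the overexpression groups (1071 to 1414 against 2755 to 2932 in the controls), and the third Parental library stands above its group for UPF1, SMG6 and SMG9.

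With tagged ZC3H7B, 5 factors rose, 3 fell and UPF2 was not called, and the groups did not overlap for 8 of the 9. Of all genes, 69.6% were called (32.0% higher, 37.6% lower) and 77.1% did not overlap, so a high share of calls is again common to the whole table. This comparison uses the same 3 control libraries as the one before, so the 2 sets of values are not independent. The median log2 fold change was 0.38 over the 9 factors and -0.06 over all genes.

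The factors that rose with ZC3H7B were the same 5 genes by name. SMG9 was at 4815, 4664 and 4567 with ZC3H7B (log2 fold change 0.65, SE 0.0473, adjusted p = 2.26e-07 by limma) and SMG6 at 2536, 2482 and 2391 (log2 fold change 0.60, SE 0.0598, adjusted p = 2.89e-06 by limma). Both exceeded the 90th percentile of all genes, at 0.55. SMG5 was at 9653, 9730 and 9483 (log2 fold change 0.47, SE 0.0472, adjusted p = 3.11e-06 by limma). UPF1 was at 6521, 6361 and 6259 (log2 fold change 0.43, SE 0.0557, adjusted p = 2.50e-05 by limma). SMG8 was at 1623, 1619 and 1617 (log2 fold change 0.38, SE 0.0459, adjusted p = 1.28e-05 by limma). For all 5, each ZC3H7B library was above each control.

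Among the factors that fell, SMG1 was at 5720, 6169 and 6810 with ZC3H7B (log2 fold change -0.53, SE 0.0966, adjusted p = 3.48e-04 by limma). UPF3B was at 1883, 2073 and 2170 (log2 fold change -0.47, SE 0.0894, adjusted p = 4.93e-04 by limma) and UPF3A at 755, 792 and 822 (log2 fold change -0.38, SE 0.0657, adjusted p = 2.43e-04 by limma). The controls were higher in each case, with no overlap. UPF2 was at 1415, 1676 and 1819, which spans the controls (log2 fold change -0.03, SE 0.108, adjusted p = 0.811 by limma).

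The direct contrast of the overexpressions compares the 2 lines, which differed in the mRNA of both paralogs. Against the controls, ZC3H7A had a log2 fold change of 1.77 in its own line and -0.68 in the ZC3H7B line. ZC3H7B had one of 2.19 in its own line and 0.42 in the ZC3H7A line. The part of these differences in the contrast was not tested. With ZC3H7A, 4 factors were lower than with ZC3H7B and 5 were not called, and the groups did not overlap for 5. Over all genes 44.3% were called (23.9% higher, 20.4% lower) and 49.2% did not overlap. UPF2 and both UPF3 genes were lower with ZC3H7A: UPF3B by a log2 fold change of -0.77 (SE 0.0894, adjusted p = 2.54e-05 by limma), UPF2 of -0.53 (SE 0.108, adjusted p = 1.80e-03 by limma) and UPF3A of -0.27 (SE 0.0657, adjusted p = 5.25e-03 by limma). SMG8 was lower by a smaller step (log2 fold change -0.15, SE 0.0459, adjusted p = 0.0187 by limma), and this call was lost when any 1 ZC3H7B library was left out (adjusted p = 0.0509 to 0.0583). UPF1 had a log2 fold change of -0.07 (SE 0.0557), SMG1 of -0.09 (SE 0.0966), SMG5 of 0.06 (SE 0.0472), SMG6 of 0.05 (SE 0.0598) and SMG9 of -0.11 (SE 0.0473), with limma adjusted p between 0.0735 and 0.553. Without the third ZC3H7A library 7 factors were called in place of 4, SMG1 lower (log2 fold change -0.21) and SMG5 (0.12) and SMG6 (0.12) higher with ZC3H7A.

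Ratios of factors within a library do not depend on the scaling between libraries. They can still carry the trend with transcript A+T share that is described below. The ratio of UPF3B to UPF3A normalized counts was 2.75 ± 0.0570 (SD, n = 3) in the controls, 1.83 ± 0.110 with ZC3H7A and 2.58 ± 0.0784 with ZC3H7B. No library of these 3 groups overlapped another group, and the ZC3H7A libraries, at 1.72 to 1.94, stood furthest from the controls, the highest of which was 2.81. After removal of that trend, UPF3B and UPF3A had log2 fold changes of -0.87 and -0.70 with ZC3H7A, against -1.25 and -0.65 before. For ZC3H7B the values were -0.16 and -0.44, against -0.47 and -0.38, so UPF3A then had the larger fall. The ratio of SMG5 to SMG1 was 0.772 ± 0.0366 in the controls, 1.75 ± 0.373 with ZC3H7A and 1.55 ± 0.149 with ZC3H7B. Both overexpressions were above the controls, and they overlapped each other. For ZC3H7A, SMG5 and SMG1 were at log2 fold changes of 0.22 and -0.36 after the removal, against 0.53 and -0.63 before. For ZC3H7B they were at 0.23 and -0.33, against 0.47 and -0.53. The directions thus stayed and the changes were smaller. The ratios themselves were not computed again.

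In the depletion experiment a smaller share of all genes was called than in the overexpressions, and fewer of the factors. Against Parental, DD had 3 factors higher, 1 lower and 5 not called, and 4 factors did not overlap between the groups. Over the 18494 genes tested there, 29.5% were called (14.7% higher, 14.8% lower) and 43.0% did not overlap. The median log2 fold change was 0.10 over the 9 factors and 0.01 over all genes.

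SMG8 rose from 959, 1072 and 1216 in Parental to 1666, 1490 and 1628 in DD (log2 fold change 0.56, SE 0.0944, adjusted p = 9.38e-04 by limma). UPF2 rose from 668, 508 and 508 to 752, 855 and 821 (log2 fold change 0.54, SE 0.117, adjusted p = 4.64e-03 by limma). Both exceeded the 90th percentile of all genes, at 0.51, and no DD library reached down to Parental. SMG5 fell from 6470, 6523 and 6954 to 5624, 5520 and 5352 (log2 fold change -0.27, SE 0.0621, adjusted p = 6.12e-03 by limma), again with no overlap. SMG6 was called higher although its groups overlapped, at 1505, 1810 and 2597 in Parental and 2617, 2902 and 2490 in DD (log2 fold change 0.47, SE 0.153, adjusted p = 0.0362 by limma). That call was lost with edgeR's quasi-likelihood test (adjusted p = 0.0545), with upper-quartile scaling (adjusted p = 0.0509) and in 5 of 6 fits that left out 1 library, with log2 fold changes from 0.30 to 0.69 over the 6. SMG6 is therefore a marginal call in these libraries.

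The other 5 factors were not called in DD. UPF1 was at 2842, 3303 and 4725 in Parental and 3901, 3769 and 3598 in DD (log2 fold change 0.08, SE 0.141), and SMG9 at 1747, 2004 and 2891 in Parental and 1752, 1782 and 1761 in DD (log2 fold change -0.29, SE 0.142). For both genes the third Parental library was far above the other two. Without it UPF1 was called higher in DD (log2 fold change 0.29, adjusted p = 2.37e-03 by limma). SMG9 was then not called, at a log2 fold change of -0.08. SMG9 was called lower only when Parental replicate 1 was left out (log2 fold change -0.45, adjusted p = 0.0123 by limma). That fit kept the high library. SMG1 was at 7096, 5473 and 5636 in Parental and 6419, 6150 and 6553 in DD (log2 fold change 0.08, SE 0.0913), so DD lay inside the Parental range. UPF3A was at 500, 510 and 453 in Parental and at 553, 516 and 653 in DD (log2 fold change 0.23, SE 0.110, adjusted p = 0.140 by limma), without overlap but not called. UPF3B was low in both, at 189, 180 and 181 and at 197, 187 and 206 (log2 fold change 0.10, SE 0.130).

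Set beside the overexpressions, SMG8 and SMG6 had the same sign of change in all 3 comparisons with a control group, as did UPF1, whose value in DD was not called. SMG5 and SMG9 were higher in both overexpressions and had negative values in DD, called for SMG5 only. UPF3A, UPF3B and SMG1 fell in both overexpressions and had positive values in DD that were not called. UPF2 was called in opposite directions with ZC3H7A and in DD. With ZC3H7B it was not called, and its value there was from -0.03 as deposited to 0.05 under other scalings. The difference between these effects was not tested, since the experiments were fitted apart.

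**Figure D2:**
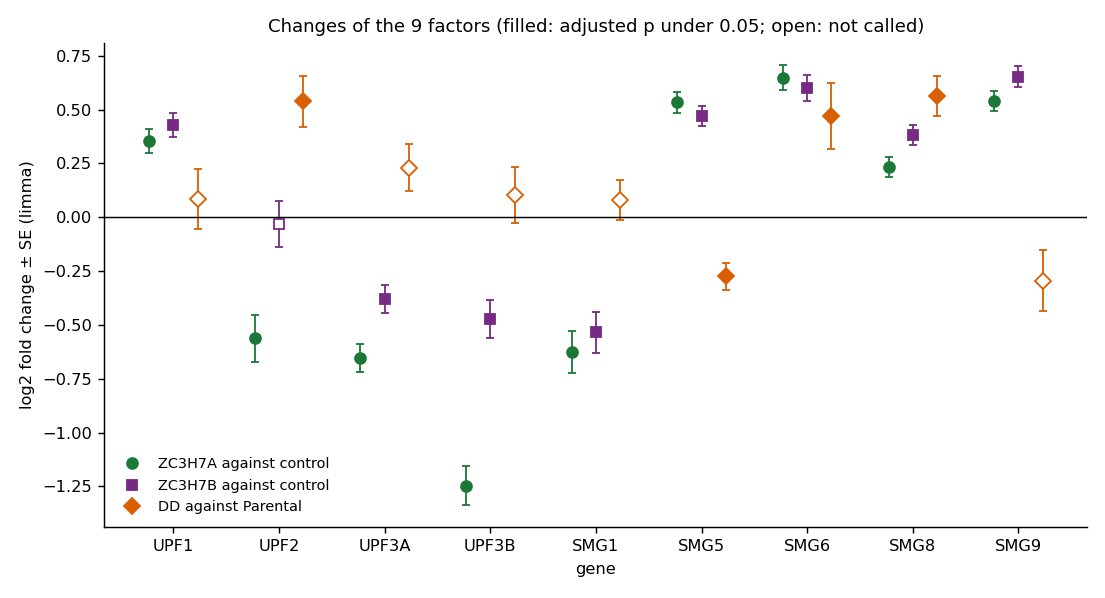
log2 fold change with its limma standard error (y axis) for each of the 9 factors (x axis) with ZC3H7A and with ZC3H7B against the shared controls and in DD against Parental; filled marks were called and open marks were not. UPF3B with ZC3H7A is the lowest value, at -1.25, and SMG5 is above 0 in both overexpressions and at -0.27 in DD.

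Across the 13568 coding genes tested with a sequence, the changes in both overexpressions ran with the last base of the codons. With ZC3H7A the median log2 fold change went from 0.38 for genes with under 20% of codons ending in A or T to -0.65 for genes above 60%, and with ZC3H7B from 0.23 to -0.52. Pearson's r across genes was -0.45 and -0.41, and 0.02 in DD over 13204 genes. Genes are not independent replicates, and these values are a description. In each library the log2 value against the control mean changed by -0.27 to -0.46 per 10 percentage points of transcript A+T with ZC3H7A, least in the third library, and by -0.27 to -0.37 with ZC3H7B.

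The factors were read against genes of like codon usage. UPF1, at 0.35 with ZC3H7A, lay close to the median of 0.32 for genes with 20% to 30% of such codons, and UPF2, at -0.56, close to -0.65 for those above 60%. SMG5 and SMG9, at 0.53 and 0.54, were above the median of 0.22 for genes with 30% to 40%. SMG6 at 0.65 and UPF3A at -0.65 share the range of 40% to 50%, whose median was 0.02, and lay on opposite sides of it. SMG6 sits at the lower edge of that range, next to the range with the median of 0.22, and was above both. SMG8 at 0.23, SMG1 at -0.63 and UPF3B at -1.25 share the range of 50% to 60%, whose median was -0.25. SMG8 was among the 19.1% of those genes that were higher with ZC3H7A.

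**Figure D3:**
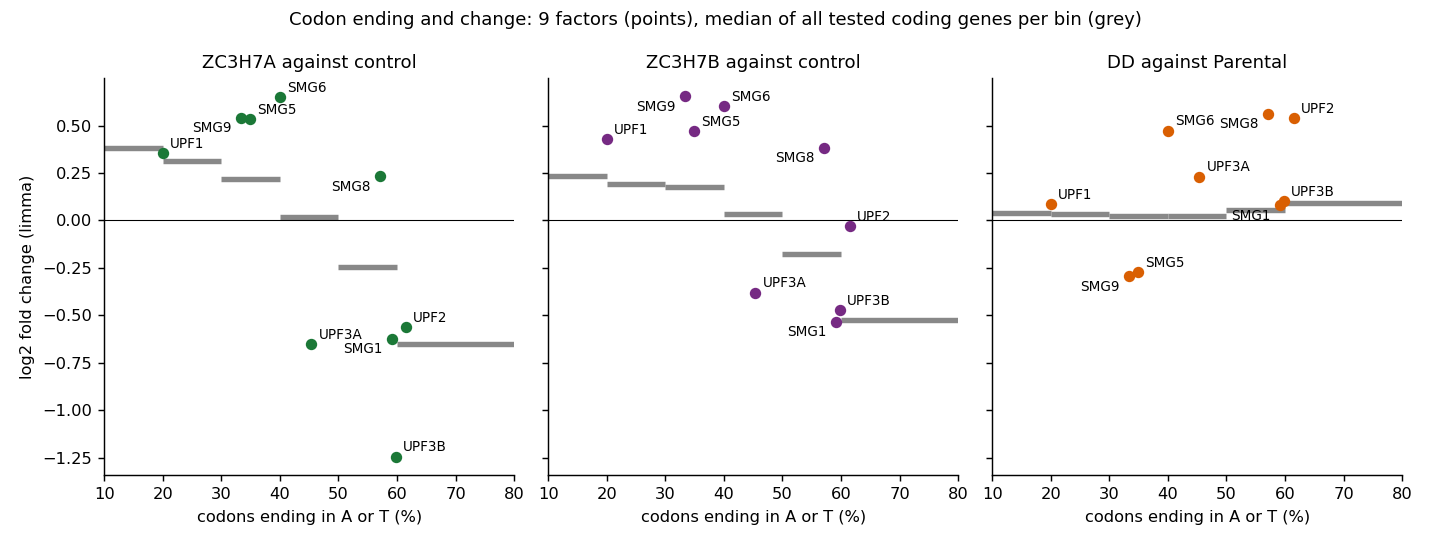
log2 fold change (y axis) against A- or T-ending codons (x axis, percent of codons) for the 9 factors, in 3 comparisons; grey bars give the median of all tested coding genes in each range of that percentage, the outer bars cut at the limits of the axis. With ZC3H7A the grey medians go from 0.38 to -0.65, with SMG8 above and UPF3B below the bar of their range.

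The comparison was then repeated after the trend with transcript A+T share had been removed from each library. With ZC3H7A, UPF1 went to a log2 fold change of 0.01 (adjusted p = 0.875 by limma) and UPF2 to -0.05 (adjusted p = 0.409 by limma), so neither was called, and the other 7 factors were. UPF3A hardly moved, at -0.70, and UPF3B (-0.87) and SMG1 (-0.36) remained lower. SMG5 (0.22), SMG6 (0.37), SMG8 (0.21) and SMG9 (0.27) remained higher. With ZC3H7B all 9 factors were called, and UPF2 turned from -0.03 to 0.42 (adjusted p = 3.27e-06 by limma). UPF3B was at -0.16 there, against -0.47 before the removal. The direct contrast of UPF3B between the overexpressions was -0.71 after the removal and -0.77 before it, and UPF2 was at -0.47 and UPF3A at -0.26. In that contrast 6 factors were called in place of 4, since UPF1 (-0.18, adjusted p = 9.41e-05 by limma) and SMG9 (-0.17, adjusted p = 1.00e-04 by limma) were then lower with ZC3H7A. Calls over all genes in that contrast were 8400 of 13568 after the removal and 7832 of 17673 before it. After the removal they were 10582 of 13568 with ZC3H7A and 10074 of 13568 with ZC3H7B. In DD the same 4 factors were called, with SMG8 at 0.55, UPF2 at 0.48, SMG6 at 0.46 and SMG5 at -0.30, and 5296 of 13204 genes.

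**Figure D4:**
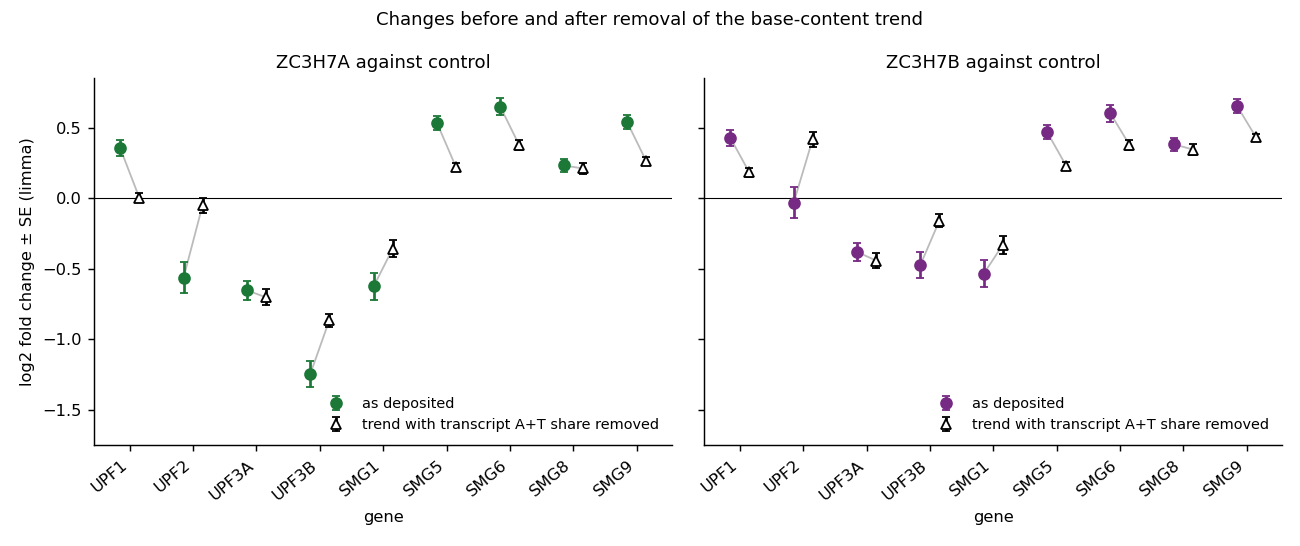
log2 fold change with its limma standard error (y axis) of the 9 factors (x axis) with ZC3H7A (left) and ZC3H7B (right), as deposited (circles) and after removal of each library's trend with transcript A+T share (triangles). UPF1 with ZC3H7A goes from 0.35 to 0.01, and UPF2 with ZC3H7B from -0.03 to 0.42.

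Some of these counts could be shared with other genes, since the sources used here do not say whether counting used strand. Of the 10554 exon bases of SMG6, 2419 lie opposite exons of HIC1, which was at 177 to 187 normalized counts in the controls, 198 to 251 with ZC3H7A and 161 to 168 with ZC3H7B. Of the 3752 exon bases of SMG8, 422 are shared on the same strand with the coding gene AC099850.2, which has no value here under that name. SMG1 has near-identical pseudogenes, of which SMG1P1 was measured, at 7.40 to 16.6 normalized counts in the overexpression experiment and 192 to 289 in the depletion experiment, so part of the SMG1 reads may be counted elsewhere. The UPF3A pseudogene UPF3AP2 was at 57.2 to 69.3 in the controls, 29.98 to 39.1 with ZC3H7A and 34.8 to 42.4 with ZC3H7B. It was lower in both, as UPF3A was. UPF3AP1 and UPF3AP3 were at 0 to 4.61 in the overexpression libraries. In the depletion experiment UPF3AP1 was at 33.3 to 52.3 in Parental and 28.4 to 42.1 in DD.

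Other genes of the pathway came from lists written down with the factors, and the codon pattern covers them too. With ZC3H7A, 64.7% of coding genes with under 20% of codons ending in A or T rose. Of those above 60%, 83.9% fell. That share of codons is 17.7% in RUVBL2, 65.5% in PNRC2, 61.8% in ETF1 and 63.2% in ICE1. Of 13 further NMD and termination factors, 7 rose, 4 fell and 2 were not called with ZC3H7A, and 6, 3 and 4 with ZC3H7B, with medians of 0.28 and 0.05 against -0.07 and -0.06 over all genes. The number called is near the shares of 75.9% and 69.6% called over all genes. RUVBL2, an AAA+ ATPase that assists SMG1 and related kinases, rose with both proteins (log2 fold changes 1.16 and 1.02), and so did the helicase DHX34, which aids UPF1 phosphorylation (0.88 and 0.76). NBAS rose with both (0.29 and 0.50), and PNRC2, which links UPF1 to decapping, fell with both (-1.24 and -0.48). ICE1, listed as KIAA0947, fell with ZC3H7A (-1.19), was not called with ZC3H7B (-0.15) and was lower with ZC3H7A in the direct contrast (-1.04). The release factor gene GSPT1, the paralog of GSPT2, and the helicase gene MOV10 were higher with ZC3H7A than with ZC3H7B (0.26 and 0.27). In that contrast 2 of the 13 rose and 4 fell, where 23.9% of all genes were higher and 20.4% lower. In DD 4 rose and 1 fell (14.7% and 14.8% over all genes), with the release factor genes GSPT2 at 0.98 and ETF1 at 0.29 and SEC13 at 0.31, while PNRC2 was at -0.53.

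Of 9 exon junction complex genes, 6 rose and 1 fell with ZC3H7A, where 34.7% of all genes were higher and 41.2% lower. With ZC3H7B 4 rose and 5 were not called, against 32.0% higher and 37.6% lower, and in DD 3 rose and 1 fell, against 14.7% and 14.8%. The medians of the 9 were 0.19, 0.11 and 0.10. EIF4A3, the complex's RNA-clamping helicase, was at 4916 ± 196 normalized counts (SD, n = 3) in the controls, 7781 ± 480 with ZC3H7A and 6457 ± 207 with ZC3H7B (log2 fold changes 0.66 and 0.39), and it rose in DD as well (0.60). RNPS1 (0.44 and 0.33), CASC3 (0.38 and 0.37) and SAP18 (0.25 and 0.26) rose in both overexpressions. EIF4A3 and RNPS1 were also the 2 members called higher with ZC3H7A than with ZC3H7B (0.27 and 0.12), where 23.9% of all genes were higher. MAGOH (0.12) and MAGOHB (-0.13) were not called there. In DD, MAGOH (0.32) and CASC3 (0.28) rose and PYM1, listed as WIBG, which recycles the complex, fell (-0.47).

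SMG1 belongs to the PI3K-related kinases, whose stability depends on the TTT and R2TP chaperones. Of 10 such kinase and chaperone genes, 6 rose and 4 fell with ZC3H7A, 7 rose and 3 fell with ZC3H7B, and 2 rose and 3 fell in DD, where 34.7%, 32.0% and 14.7% of all genes were higher and 41.2%, 37.6% and 14.8% lower. The medians of the 10 were 0.33, 0.40 and 0.00. The TTT subunit genes TTI1 (0.55 and 0.97) and TTI2 (0.92 and 0.64) and the R2TP subunit gene PIH1D1 (0.67 and 0.51) rose in both overexpressions. The DNA damage kinase genes ATM (-1.43 and -1.17) and ATR (-1.25 and -0.90) fell in both, ATM with the largest change of the 10. The R2TP subunit gene RPAP3 fell as well (-0.98 and -0.76). Codons ending in A or T made up 65.2% of ATM, 65.1% of ATR and 70.5% of RPAP3, a range in which most genes fell. MTOR fell with ZC3H7A (-0.50) and in DD (-0.73), rose with ZC3H7B (0.24) and was lower with ZC3H7A than with ZC3H7B (-0.74). In that contrast 2 of the 10 rose and 4 fell, against 23.9% and 20.4% over all genes. TTI1 (-0.41) and PRKDC (-0.24) were among the lower and TTI2 (0.28) among the higher. PRKDC rose with ZC3H7A (0.29) and ZC3H7B (0.53) and fell in DD (-0.31), where ATR fell too (-0.32) and PIH1D1 (0.30) and RPAP3 (0.35) rose.

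Genes with transcripts known to be degraded by NMD were listed as readouts, although many of them, such as ATF4 and DDIT3, also answer to the integrated stress response. Of 25, 12 rose and 9 fell with ZC3H7A (median 0.08), 14 rose and 3 fell with ZC3H7B (median 0.18) and 1 rose and 9 fell in DD (median -0.15). Over all genes 34.7%, 32.0% and 14.7% were higher and 41.2%, 37.6% and 14.8% lower, with medians of -0.07, -0.06 and 0.01. Between the overexpressions, 4 were higher and 11 lower with ZC3H7A, where 23.9% of all genes were higher and 20.4% lower. ARFRP1, a small GTPase gene, rose in both overexpressions (1.13 and 0.86), as did ATF4 (0.73 and 0.54), whose normalized counts were 10183 ± 245 in the controls, 16920 ± 614 with ZC3H7A and 14791 ± 398 with ZC3H7B. TBL2 (0.51 and 0.23) and RASSF1 (0.19 and 0.52) also rose in both. Codons ending in A or T made up 16.9% of ARFRP1, a range in which most genes rose with ZC3H7A. GADD45B, at 19.3%, fell with ZC3H7A (-0.61), while SRSF3 at 63.4% (0.10) and TRA2B at 61.1% (0.26) rose. The small nucleolar RNA host genes did not move as 1 group: SNHG12 fell with ZC3H7A (-1.10) and ZC3H7B (-0.17), and ZFAS1 rose with both (0.39 and 0.69). SNHG12 was also lower with ZC3H7A than with ZC3H7B (-0.94). In DD, DDIT3 (-1.74), ZFAS1 (-1.04), ATF4 (-1.03) and GAS5 (-0.85) fell. ATF3 (-0.58), GADD45A (-0.46) and GADD45B (-0.75) were lower with ZC3H7A than with ZC3H7B. These counts are per gene, so a shift between a normal transcript and an NMD-sensitive isoform of the same gene would not be seen.

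**Figure D5:**
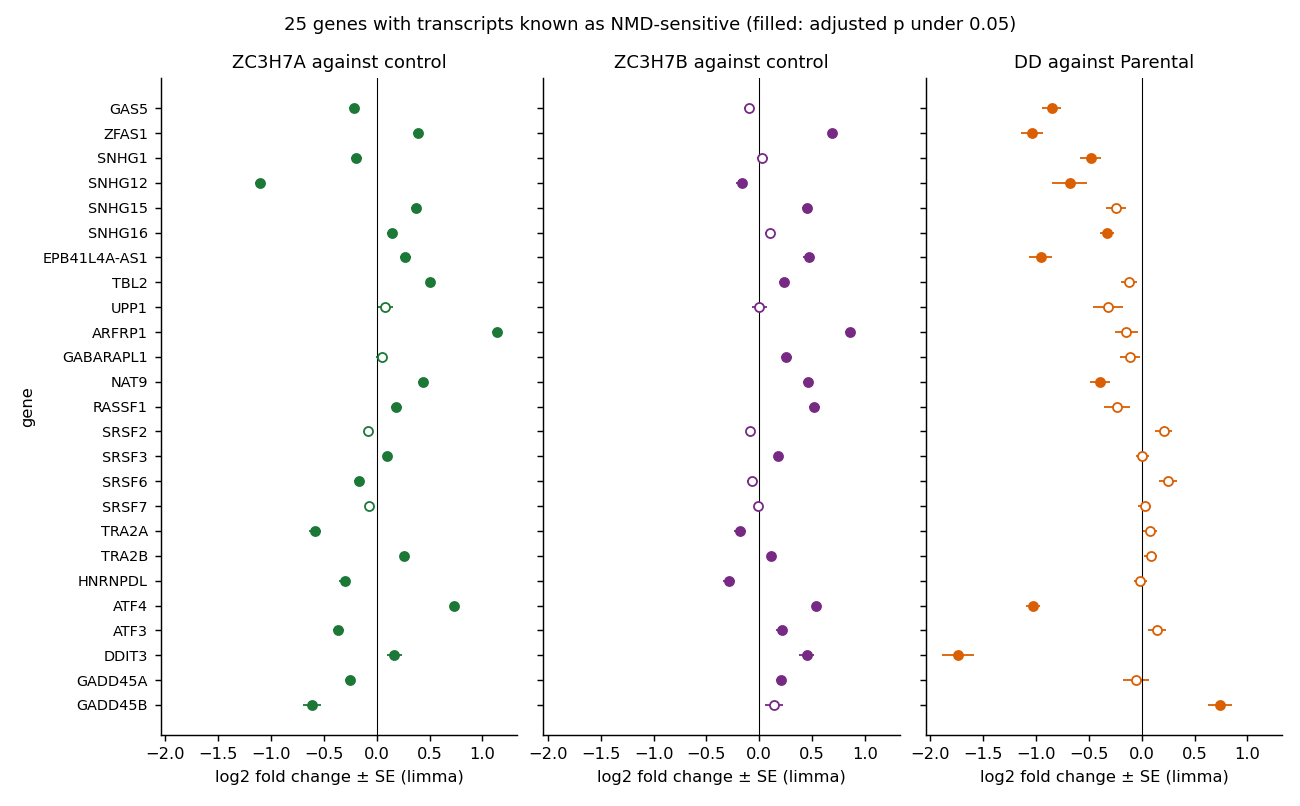
log2 fold change with its limma standard error (x axis) of 25 genes with transcripts known as NMD-sensitive (y axis), in 3 comparisons; filled points were called. In DD 9 filled points lie below 0, with DDIT3 at -1.74 as the lowest, and GADD45B is the 1 above it.

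Of the 5 genes whose pattern was most like that of UPF1 over the 15 libraries, after each experiment's mean had been subtracted, 4 were UBA1 (Pearson's r 0.98), TXLNA (0.97), UTP14A (0.96) and WDR46 (0.96), out of 12719 genes compared. For UPF3B the 5 genes were POT1, NR2C1, TATDN1, METAP2 and MYO3A (all 0.98 or 0.99), in which 60.7% to 71.7% of codons end in A or T. Among the 9 factors, the closest pairs by this measure were UPF3A with UPF3B and UPF1 with SMG6. The libraries share groups, depth and the base-content trend, so these values describe the pattern only.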

How the data were processed

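The deposited table holds 55773 genes in 15 libraries. The tools named per the submitters' processing notes are STAR 2.7.10b, HTSeq and DESeq2, and the build is hg19; their settings, the annotation and the use of strand are not given in the sources used here. The authors deposited normalized counts, treated here as a signal in size-factor-normalized reads: all values were within 0.01 reads of a whole multiple of 1 read per library, so whole reads were recovered.

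Values were taken as log2(value + 1) for genes that reached 10 in 3 or more of the fitted libraries, and tested with limma 3.58.1 in R 4.3.3 (empirical Bayes with a mean-variance trend, two-sided, Benjamini-Hochberg over all genes, adjusted p under 0.05 called). Fold changes are on that scale, which understates low genes. The 9 overexpression libraries shared a fit, and the 6 depletion libraries were fitted apart. "Rose" and "fell" are used for called genes. The procedure was tested on simulated data with a smaller spread between replicates than several factors had here and with no base-content trend. That test does not give the share of false calls in these data. All 9 factors passed the filter in both fits. edgeR 4.0.16 and DESeq2 1.42.0 on recovered reads, other scalings, pseudocounts and filters, left-out libraries and removal of a lowess trend (span 0.3) with transcript A+T share were alternatives.

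Symbols were matched to GENCODE 29 (GRCh38) and, for older names, RefSeq: 34273 current, 1149 older, 20323 unmatched and 28 date-like or repeated. As the files use hg19, no coordinates are given. Named were the 9 factors, up to 4 genes per list and comparison with the lowest adjusted p, pseudogenes in the table, ZC3H7A and ZC3H7B, and the 5 genes most like UPF1 and UPF3B (mean of at least 100); HIC1 and single values of other list genes were added after their values were seen. A few genes that this rule names are not reported here. The factors and lists were chosen with earlier results of these data known.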

Additional observations from a re-analysis of the deposited data

How the results depend on the processing

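The count of genes called in DD against Parental, 5448, ranged from 3563 (without DD replicate 1) to 6803 (without Parental replicate 3) when 1 library was left out, and the count of factors from 3 to 5. Between the overexpressions 3 to 7 of the 9 factors were called on leaving out 1 library. With the trend with transcript A+T share removed, UPF2 with ZC3H7B reversed from -0.03 to 0.42; the cause was not tested. All 9 factors with ZC3H7A and 8 with ZC3H7B were called in every fit that left out 1 library. SMG9 between the overexpressions was called under TMM and upper-quartile scaling, with edgeR, without ZC3H7A replicate 2 and with the A+T trend removed (-0.14 to -0.17, adjusted p = 1.00e-04 to 0.0443).

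Replicate numbers are shared between groups, and correlations of same-numbered libraries ranged from -0.281 (number 3 of Parental and DD) to 0.734. Between ZC3H7A and ZC3H7B they were 0.57 for number 1, 0.0532 for number 2 and 0.734 for number 3. The second ZC3H7A library correlated with the first ZC3H7B library as well (0.589). What libraries of 1 number share cannot be read from the labels and was not tested. With the number as a replicate block, 13482 genes were called with ZC3H7A, 12382 with ZC3H7B, 8301 between them and 4542 in DD, and 9, 8, 4 and 4 of the factors. Not every library correlated best with its own number. Depth limits UPF3B most in the depletion experiment, with as few as 73 reads in a library.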
